A study of Mus musculus with 46 samples.

Results

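Pramel4, Pramel5, Pramel6 and Pramel7 are members of the mouse PRAME family, named after a human antigen of melanoma. They were chosen by name and are 4 of the 7182 genes whose RNA was measured in mouse embryos before and just after implantation. Family members are leucine-rich repeat proteins, and PRAME itself works as a substrate receptor of a ubiquitin ligase built on cullin CUL2. In mouse embryonic stem cells PRAMEL7 binds that ligase and brings about the degradation of UHRF1, the protein that guides DNMT1 to newly copied DNA, and its gene lies downstream of the cytokine LIF and STAT3. Pramel6 and Pramel7 are known as genes of the inner cell mass whose forced expression holds stem cells back from differentiation.

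The study compared Rbbp5 knockout (KO) with wild-type (WT) mouse embryos. Rbbp5 is a shared subunit of the complexes that methylate histone H3 at lysine 4. For the knockout, wild-type zygotes received Cas9 mRNA and guide RNA against Rbbp5, or zygotes with floxed Rbbp5 on both chromosomes received Cre mRNA. Which of these made each KO library, what each embryo's alleles became, and whether WT zygotes were injected are not stated in the labels used here. The RNA of Rbbp5 was not analysed here, and genotypes are those of the labels.

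RNA was read in the inner cell mass (ICM) of single embryos at embryonic day (E) 3.5, freed by immunosurgery after culture in KSOM medium, in 7 KO and 7 WT embryos. The epiblast of single E5.5 embryos, cut out by hand after transfer of injected embryos to foster mothers, gave 3 KO and 3 WT libraries. Single E4.5 epiblast cells gave 3 KO and 7 WT libraries, and single E4.5 primitive endoderm cells gave 2 KO libraries and 1 WT library. Values are the deposited FPKM, fragments per kilobase of transcript scaled to library size, so levels of different genes are compared per length. The sequencing depth is unknown. Tests used limma on log2(FPKM + 1), a scale that understates changes of low genes, and a gene was called at a Benjamini-Hochberg adjusted p below 0.05.

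KO ICM libraries held 3628 to 5136 genes at 1 FPKM or more, against 5110 to 5718 in WT ICM libraries. KO libraries 1, 4 and 6 had the fewest, 3628 to 3883. Of the markers in the table, the 7 of ICM and epiblast summed to 95.8 to 310.0 FPKM in KO ICM and 183 to 445 FPKM in WT ICM, the 11 of primitive endoderm to 19.07 to 75.5 FPKM in KO and 58.4 to 238 FPKM in WT, and the 8 of trophectoderm, the outer layer, to 24.7 to 162 FPKM in KO and 47.9 to 976 FPKM in WT. At E5.5 the same 8 trophectoderm markers summed to 1920 to 3330 FPKM in KO libraries and 94.5 to 144 FPKM in WT libraries. The 4 E5.5 epiblast markers in the table summed to 40.1 to 140.0 FPKM in KO and 432 to 507 FPKM in WT. The libraries labelled KO E5.5 epiblast therefore carried more trophectoderm than epiblast marker RNA.

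The members lie in pairs on 2 chromosomes (RefSeq annotation of GRCm38.p6, mm10). Pramel6 (chr2:87506565-87510865, plus strand) and Pramel7 (chr2:87489088-87492418, minus strand) point away from each other, with 14.1 kb between their transcription starts. Pramel4 (chr4:144059125-144069327, plus strand) and Pramel5 (chr4:144270633-144280466, minus strand) start 221 kb apart. Of other measured genes, only the olfactory receptor Olfr1123, listed at 0 FPKM in every library, starts within 500 kb of the chromosome 2 pair. The chromosome 4 pair sits among Pramef12, Pramef17 and Pramef6, now named Pramel13, Pramel14 and Pramel11.

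The promoters below are shown because the RNA of all 4 members fell between stages, so that likeness of the start regions can be set against likeness of the RNA pattern. Each runs from 250 bases before to 50 bases after the annotated start, 5′ to 3′ on the gene's own strand, as RefSeq gives it for GRCm38.p6. Capitals mark CG dinucleotides and the run CCATATAAGG. The windows are Pramel7 at chr2:87492369-87492668 (minus), Pramef17 at chr4:143994320-143994619 (minus), Pramel6 at chr2:87506315-87506614 (plus), Pramel4 at chr4:144058875-144059174 (plus) and Pramel5 at chr4:144280417-144280716 (minus).
Pramel7: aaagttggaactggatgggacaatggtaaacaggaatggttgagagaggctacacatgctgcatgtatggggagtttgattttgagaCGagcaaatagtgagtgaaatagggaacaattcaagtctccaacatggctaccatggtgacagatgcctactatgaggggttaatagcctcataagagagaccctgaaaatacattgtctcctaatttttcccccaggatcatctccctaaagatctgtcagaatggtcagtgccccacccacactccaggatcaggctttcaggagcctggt
Pramef17: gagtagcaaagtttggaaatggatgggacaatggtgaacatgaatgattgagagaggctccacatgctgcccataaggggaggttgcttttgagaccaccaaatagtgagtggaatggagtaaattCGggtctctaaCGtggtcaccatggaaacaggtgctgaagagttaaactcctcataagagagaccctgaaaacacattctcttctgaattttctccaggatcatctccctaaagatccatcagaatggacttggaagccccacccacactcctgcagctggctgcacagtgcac
Pramel6: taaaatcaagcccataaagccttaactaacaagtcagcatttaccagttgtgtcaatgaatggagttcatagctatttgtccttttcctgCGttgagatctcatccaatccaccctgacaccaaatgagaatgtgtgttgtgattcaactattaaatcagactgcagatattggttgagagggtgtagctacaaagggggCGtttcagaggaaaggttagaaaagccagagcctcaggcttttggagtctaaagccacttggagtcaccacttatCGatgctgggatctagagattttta
Pramel4: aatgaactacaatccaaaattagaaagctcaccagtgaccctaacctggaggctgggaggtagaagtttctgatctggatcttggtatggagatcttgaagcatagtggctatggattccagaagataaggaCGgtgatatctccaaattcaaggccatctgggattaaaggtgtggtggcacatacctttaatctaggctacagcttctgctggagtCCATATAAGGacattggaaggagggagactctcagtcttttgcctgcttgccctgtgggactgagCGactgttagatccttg
Pramel5: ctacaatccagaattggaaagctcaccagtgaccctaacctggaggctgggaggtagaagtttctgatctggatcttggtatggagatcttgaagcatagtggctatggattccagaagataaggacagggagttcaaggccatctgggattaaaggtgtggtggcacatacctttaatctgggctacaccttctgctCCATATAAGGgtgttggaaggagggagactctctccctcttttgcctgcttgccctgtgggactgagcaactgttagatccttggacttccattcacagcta

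The Pramel4 and Pramel5 promoters were near copies, identical at 267 of 280 aligned bases (95.4%). The other 5 pairs of members reached 57.8% to 63.7%, which is about the median of 63.4% to 65.0% that each member had against the promoters of 35 other family genes. So the Pramel6 and Pramel7 promoters, neighbours on chromosome 2, were no more alike (63.7%) than members of the family in general. The Pramel7 promoter was closer to that of Pramef17 on chromosome 4 (81.0%, 234 of 289 bases) than to that of its neighbour Pramel6. These were not isolated pairs. Pramel7 was about as close to the family gene Pramel30 (80.2%, 231 of 288 bases). The family gene Pramel17 reached 86.1% with Pramel4 and 83.1% with Pramel5.

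All 4 promoters held fewer CG than the median promoter. Pramel4 held 2, Pramel5 held 0, Pramel6 held 3 and Pramel7 held 1, against a median of 7 over 32851 mouse promoters of the same length. The run CCATATAAGG, of the CArG form that serum response factor binds, was noticed after the sequences were seen. It starts 32 bases before the start of Pramel4 and 52 bases before that of Pramel5, is not in the windows of Pramel6 and Pramel7, and stood on either strand in 24 of the 32851 promoters (0.0731%). Searched on both strands, TTCNNNGAA (the STAT form, in 8.3% of promoters), GGGNGTG (a KLF form, 29.2%), the octamer ATGCAAAT (1.74%) and TATAAA (13.6%) had no match in the 4 windows. No match says only that these letters are not in the windows.

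All 4 members were among the abundant transcripts of the ICM. Among the 7182 genes, Pramel6 ranked 117 to 414 over the 7 KO ICM libraries and 65 to 141 over the 7 WT ICM libraries. Pramel4 ranked 154 to 366 in KO and 95 to 209 in WT, Pramel7 210 to 634 in KO and 139 to 386 in WT, and Pramel5 224 to 735 in KO and 212 to 448 in WT. The 4 genes together made up 0.121% to 0.425% of all FPKM in KO ICM libraries and 0.377% to 0.596% in WT ICM libraries.

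Pramel6 and Pramel7 were lower in KO than in WT ICM, at 53.5% and 53.7% of the WT mean FPKM. Pramel4 and Pramel5 averaged 69.2% and 70.6% of it and did not pass the test. Of 5443 genes tested in this comparison, 24.9% were called lower and 3.44% higher, and the median gene changed by -0.65 on the log2 scale. The 2 of 4 members called lower are read against that background: Pramel6 and Pramel7 lay 0.48 and 0.45 below the median change, and Pramel4 and Pramel5 lay on it. In such embryos fewer cells of a type and less RNA per cell cannot be told apart.

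Pramel7, the UHRF1-directed member, had 56.1, 125 and 335 FPKM as lowest, median and highest level in KO ICM, against 164, 276.5 and 444 FPKM in WT ICM. KO libraries 1, 4 and 6 were lowest, at 56.1 to 92.4 FPKM, and KO libraries 3 and 7 reached into the WT range, so the groups overlapped. The mean was 154 ± 105 FPKM in KO and 287 ± 92.7 FPKM in WT (SD, n = 7 each). The log2 change was -1.11 with an SE of 0.35 (95% interval -1.85 to -0.37, limma adjusted p = 0.0279; exact permutation p = 0.0198, two-sided). That call was lost when WT library 3 or 4, or KO library 1, 4 or 6, was left out (adjusted p = 0.0502 to 0.0631).

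Pramel6, its neighbour, had 116, 285 and 568 FPKM as lowest, median and highest level in KO ICM, against 438, 523 and 816 FPKM in WT ICM. KO libraries 1, 4 and 6 were again lowest, at 116 to 151 FPKM, 5 of 7 KO libraries lay below every WT library, and KO libraries 3 and 7 overlapped with WT. The mean was 301 ± 182 FPKM in KO and 563 ± 119 FPKM in WT (SD, n = 7 each). The log2 change was -1.13 with an SE of 0.32 (95% interval -1.81 to -0.45, limma adjusted p = 0.0172; exact permutation p = 0.00932, two-sided), and it stayed called when any of the 14 libraries was left out.

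Pramel4 had 124, 274 and 415 FPKM as lowest, median and highest level in KO ICM, against 288.5, 358 and 499.7 FPKM in WT ICM. Although 5 of 7 KO libraries lay below every WT library, KO libraries 5 and 7 were at 415 and 408 FPKM, inside the WT range. The log2 difference was -0.64 with an SE of 0.26 (95% interval -1.19 to -0.09, limma adjusted p = 0.0694). It was called without KO library 5 (adjusted p = 0.0274) or 7 (adjusted p = 0.0305).

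Pramel5 had 57.6, 122 and 259 FPKM as lowest, median and highest level in KO ICM, against 129.7, 186 and 270.1 FPKM in WT ICM. Its KO libraries did not follow the order of the other members: library 1, low for the other 3, was its highest, and library 7, high for the other 3, was next to its lowest. The log2 difference was -0.64 with an SE of 0.31 (95% interval -1.28 to 0.01, limma adjusted p = 0.119), and it was called without KO library 1 (adjusted p = 0.0468).

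**Figure D1:**
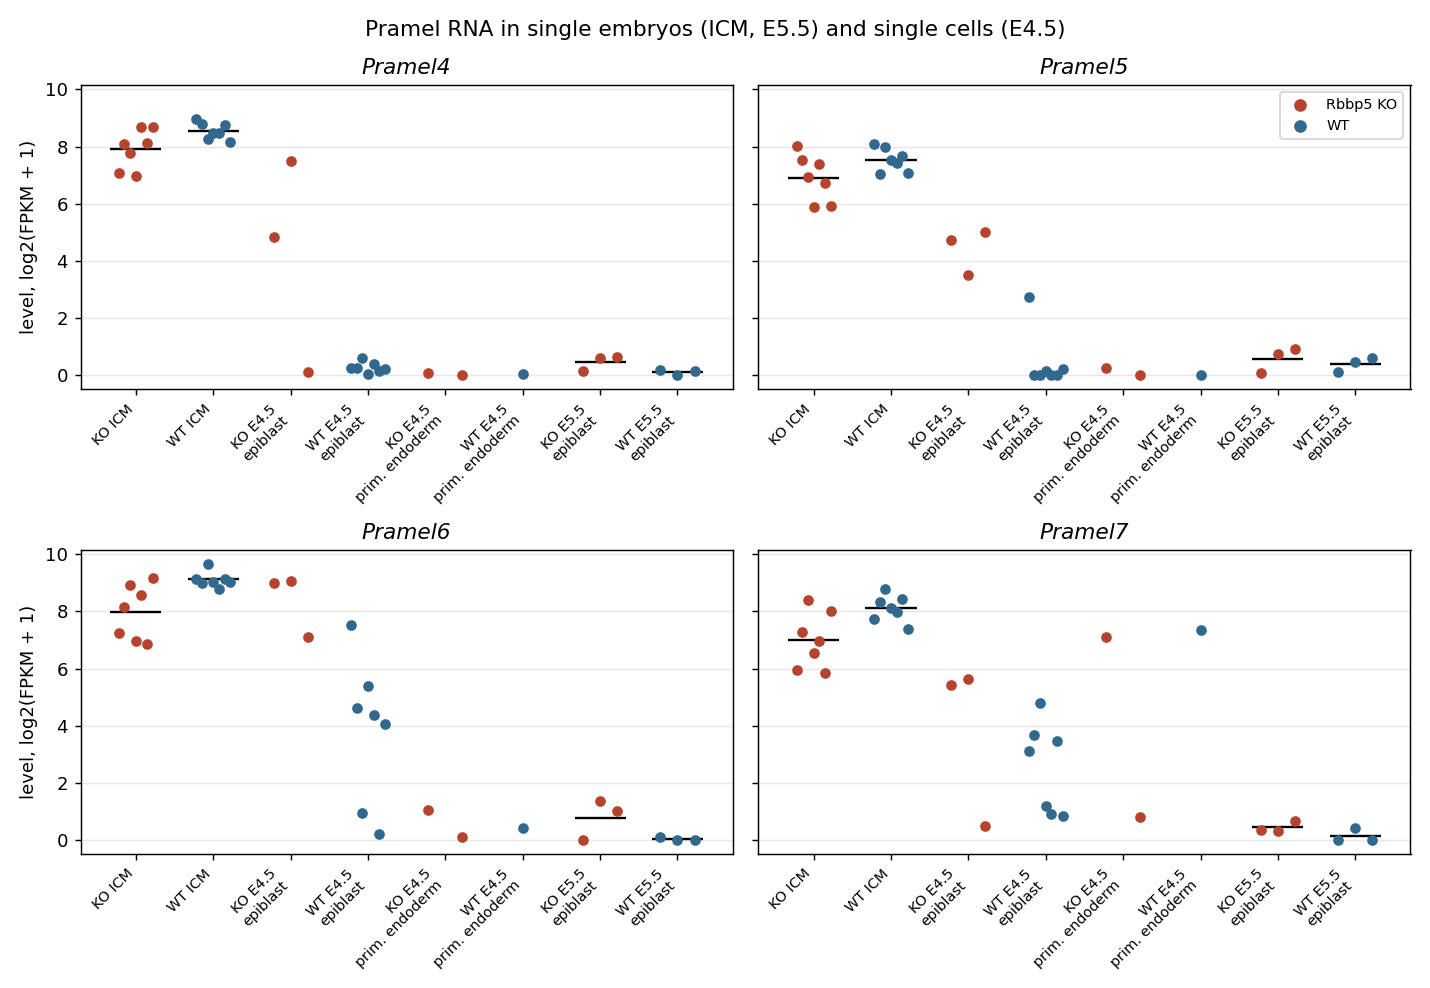
Levels of the 4 genes as log2(FPKM + 1) in each library, KO left of WT within each stage and cell type; each point is a single embryo (ICM, E5.5) or a single cell (E4.5), and black bars are means of embryo groups. All 4 genes are high in ICM and near 0 at E5.5, and at E4.5 most KO epiblast cells lie above the WT epiblast cells.

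The ICM difference was smaller in fits that set aside the libraries with fewest genes or took the number of genes into account. That number hardly overlaps between the genotypes, so its effect and that of the genotype cannot be told apart in these fits. Without KO libraries 1, 4 and 6, the differences were -0.41 for Pramel6 (limma adjusted p = 0.205) and -0.44 for Pramel7 (adjusted p = 0.34), where the median gene changed by -0.34. With the number of detected genes in the model, they were -0.04 (adjusted p = 0.997) and -0.31 (adjusted p = 0.942), and no gene was called, although 314 had an unadjusted p below 0.05. Scaling by median ratios, with a median change of -0.26, gave -0.57 (adjusted p = 0.152) and -0.55 (adjusted p = 0.263). Under quantile normalization, which brought the median change to 0.03, Pramel6 (-1.26, adjusted p = 0.00762), Pramel7 (-0.98, adjusted p = 0.0379) and Pramel4 (-0.72, adjusted p = 0.0466) were called lower and Pramel5 (-0.46, adjusted p = 0.283) was not. Within KO ICM libraries the correlation of Pramel6 with the number of genes was r = 0.87 (exact permutation p = 0.0286, adjusted 0.191 over 20 relations; rho 0.68, exact permutation p = 0.11, adjusted 0.44; r = 0.79 without the 2 farthest), and within WT ICM libraries r was -0.37 (exact permutation p = 0.43, adjusted 0.782; rho -0.14, exact permutation p = 0.783, adjusted 1.0; r = 0.09 without the 2 farthest). For Pramel7 r was 0.69 in KO (exact permutation p = 0.103, adjusted 0.41; rho 0.57, exact permutation p = 0.2, adjusted 0.667; r = 0.54 without the 2 farthest) and -0.60 in WT (exact permutation p = 0.158, adjusted 0.41; rho -0.75, exact permutation p = 0.0663, adjusted 0.332; r = -0.20 without the 2 farthest). None of these relations passed the adjustment.

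**Figure D2:**
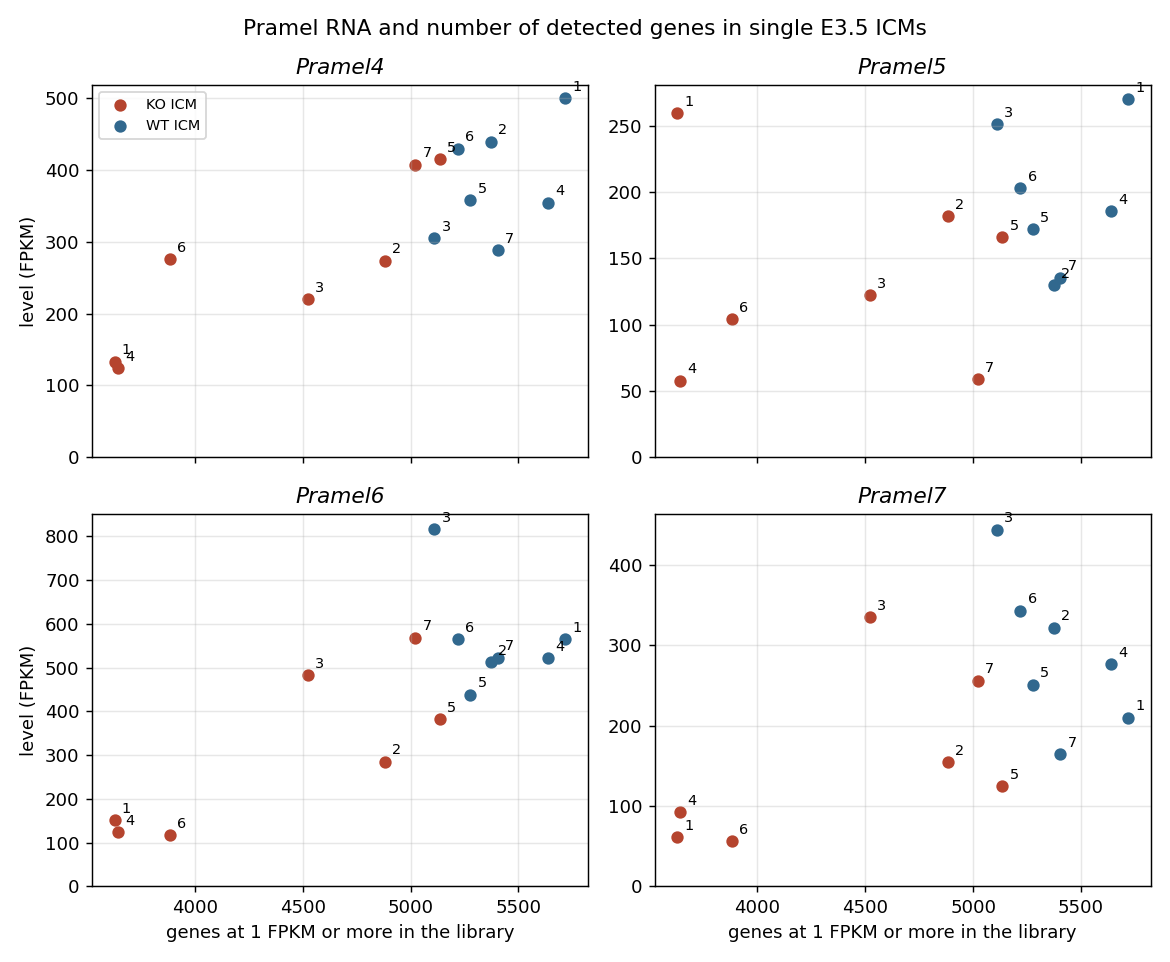
FPKM of each gene (vertical) against how many genes reached 1 FPKM (horizontal) in the 7 KO and 7 WT ICM libraries; numbers are replicates. KO libraries 1, 4 and 6, with 3628 to 3883 genes, hold the lowest Pramel6 (116 to 151 FPKM) and Pramel7 (56.1 to 92.4 FPKM), while Pramel5 shows no such order.

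**Figure D3:**
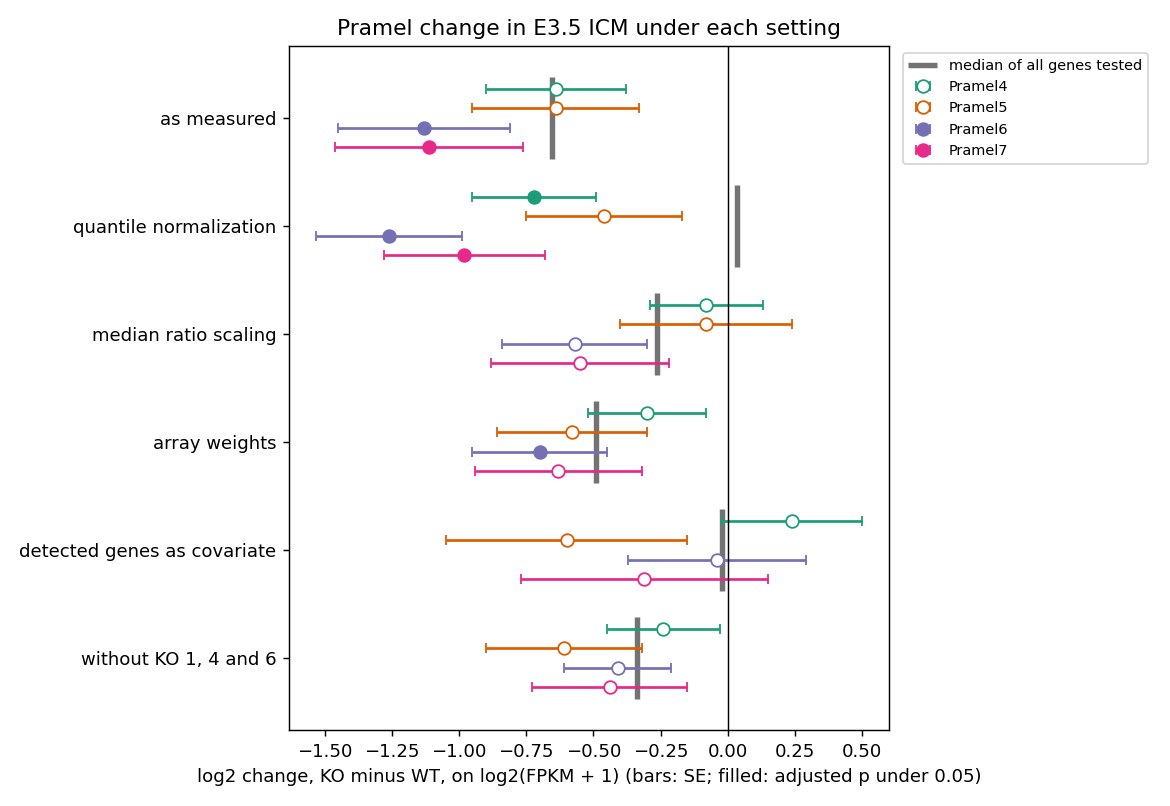
Log2 change of each gene, KO minus WT in ICM, under 6 settings of scaling, weighting and library choice; bars are standard errors, filled points have an adjusted p below 0.05, and grey bars are the median of all genes tested. Pramel6 and Pramel7 are called as measured and after quantile normalization, and none of the 4 genes is called after median ratio scaling, with detected genes as covariate, or without KO libraries 1, 4 and 6.

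Among KO ICM libraries Pramel6 and Pramel7 varied together. Over the 7 libraries Pearson's r of log2(FPKM + 1) was 0.90 (exact permutation p = 0.00853, 0.147 after adjustment over 20 relations) and Spearman's rho 0.89 (exact permutation p = 0.0123, adjusted 0.238), and r was 0.87 without the 2 libraries farthest from the median. In WT libraries r was 0.59 (exact permutation p = 0.154, adjusted 0.41), rho was 0.29 (exact permutation p = 0.556, adjusted 1.0), and r was 0.11 without the 2 farthest libraries. None of the 20 relations, which also set each gene against the others and against the number of detected genes, passed the adjustment. For Pramel4 and Pramel5, with near-copy promoters, r in KO was -0.08 (exact permutation p = 0.855, adjusted 0.969) and rho 0.04 (exact permutation p = 0.963, adjusted 1.0). In WT their r was 0.26 (exact permutation p = 0.57, adjusted 0.811) and rho 0.21 (exact permutation p = 0.662, adjusted 1.0). These values describe only the spread within a group of 7 libraries. Over the 20 embryo libraries of both stages Pramel4 and Pramel5 had r = 0.98.

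The ratio of Pramel6 to Pramel7 had lowest, median and highest values of 1.33, 2.07 and 3.06 in KO ICM, against 1.59, 1.84 and 3.19 in WT ICM. The ratio of Pramel4 to Pramel5 had 0.513, 2.16 and 6.9 in KO, against 1.21, 2.08 and 3.39 in WT. For both pairs the medians were alike and the groups overlapped, with a wider spread of Pramel4 to Pramel5 among KO libraries. The sources used here do not say how reads that map to several family genes were counted, so the split between related members is uncertain.

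By mean level the order was Pramel6, Pramel4, Pramel7, Pramel5 in both genotypes. The 3 pairs tested below are neighbours in this order, which comes from the same values, and the other pairs were not tested. In KO ICM Pramel6 exceeded Pramel4 in 4 of 7 libraries, Pramel4 exceeded Pramel7 in 6 of 7 and Pramel7 exceeded Pramel5 in 3 of 7, and none of these passed (adjusted exact permutation p = 0.875, 0.141 and 0.875). In WT ICM Pramel6 exceeded Pramel4 in 7 of 7 libraries (mean log2 ratio 0.56, exact sign-flip permutation p = 0.0156, the smallest that 7 libraries allow, adjusted 0.0468 over the 3 neighbouring pairs). Pramel4 exceeded Pramel7 in 6 of 7 WT libraries (adjusted exact permutation p = 0.0938), and Pramel7 exceeded Pramel5 in 6 of 7 (adjusted exact permutation p = 0.0703), so these neighbours were not separated beyond their spread.

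By E5.5 the RNA of all 4 members was close to absent in both genotypes. Pramel7 had 0.264, 0.26 and 0.576 FPKM in KO E5.5 libraries, against 0, 0.328 and 0 FPKM in WT E5.5 libraries. Pramel6 had 0, 1.55 and 1.03 FPKM in KO E5.5 libraries, against 0.0743, 0 and 0 FPKM in WT E5.5 libraries. KO libraries 2 and 3 held the only Pramel6 values above 1 FPKM at this stage, and KO library 1 was listed at 0 like WT libraries 2 and 3.

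Pramel4 had 0.124, 0.517 and 0.545 FPKM in KO E5.5 libraries, against 0.135, 0 and 0.101 FPKM in WT E5.5 libraries. Pramel5 had 0.0538, 0.68 and 0.88 FPKM in KO E5.5 libraries, against 0.0765, 0.371 and 0.514 FPKM in WT E5.5 libraries. The groups overlapped for all 4 genes, and all 4 fell under the filter of 1 FPKM, so none was tested between genotypes at E5.5. Without the filter the differences were 0.76 for Pramel6, 0.36 for Pramel4, 0.31 for Pramel7 and 0.19 for Pramel5 (log2, limma adjusted p = 0.0929, 0.141, 0.221 and 0.598). The part of the trophectoderm marker RNA of the KO E5.5 libraries in these values was not tested.

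Between E5.5 and E3.5 all 4 members fell in both genotypes, by amounts that depend on the pseudocount because the E5.5 values are near 0. Each member passed the filter of 1 FPKM through its ICM level alone, so in these fits a call could only be lower. The shares of all genes are given as background. In KO embryos the change was -7.45 for Pramel4, -7.19 for Pramel6, -6.56 for Pramel7 and -6.33 for Pramel5 (SE 0.41 to 0.53, limma adjusted p = 3.65e-08 to 1.5e-06). In that fit 4 of 4 were called lower, where 8.67% of 5604 genes were and the median gene changed by 1.08. With a pseudocount of 0.1 the KO changes were -9.07 to -7.93, and with 5 they were -5.51 to -4.50. The KO comparison sets ICM libraries against E5.5 libraries with high trophectoderm markers, whose part in it was not tested. In WT embryos the change was -9.08 for Pramel6, -8.45 for Pramel4, -7.97 for Pramel7 and -7.16 for Pramel5 (SE 0.19 to 0.28, limma adjusted p = 5.2e-13 to 1.27e-10). Here too 4 of 4 were called lower, where 18.9% of 6022 genes were called lower and 37.3% higher. The median gene changed by 0.43 in WT, and the members' changes were -12.17 to -8.97 with a pseudocount of 0.1 and -6.80 to -5.17 with 5.

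The difference between the KO effect at E5.5 and that at E3.5 rests, for the members, on their ICM values, since through these alone they passed the filter and at E5.5 they were near or at 0. For Pramel6 it was 1.89 on the log2 scale with an SE of 0.60 (95% interval 0.65 to 3.12, limma adjusted p = 0.0369), where the median gene had 0.56 and 10.6% of 5917 genes were called higher. The 3 KO E5.5 libraries that enter it carried the high trophectoderm markers given above, whose part was not tested. It was no longer called with a pseudocount of 5 (1.33, adjusted p = 0.0888), after median ratio scaling (1.20, adjusted p = 0.116), with detected genes as covariate (0.97, adjusted p = 0.305) or without KO ICM libraries 1, 4 and 6 (1.17, adjusted p = 0.0544). Nor was it when any 1 of 8 libraries of 20 was left out: WT ICM 1, 3 and 4, all 3 WT E5.5, and KO E5.5 2 and 3 (adjusted p up to 0.112). For Pramel7, Pramel4 and Pramel5 it was 1.41, 1.0 and 0.83 (adjusted p = 0.131, 0.156 and 0.333).

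Single E4.5 cells showed the stage between. Which embryo a cell came from is not labelled, so a group of cells was treated as 1 sample and described without a test. By mean, KO epiblast cells held more RNA of all 4 members than WT epiblast cells, where Pramel6 was the member with most RNA and Pramel4 and Pramel5 were close to 0 in most cells.

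Pramel6 reached 509, 533 and 137 FPKM in KO epiblast cells 1 to 3, against 0.161, 19.9 and 185 FPKM as lowest, median and highest of the 7 WT epiblast cells. KO cells 1 and 2 lay above every WT cell, and KO cell 3 above 6 of 7. Pramel7 had 41.8, 48.8 and 0.413 FPKM in KO epiblast cells, against 0.808, 7.64 and 26.6 FPKM as lowest, median and highest WT values. KO cells 1 and 2 were above every WT cell and KO cell 3 below every one.

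Pramel4 had 27.7, 179.5 and 0.0839 FPKM in KO epiblast cells, against 0.0455, 0.192 and 0.518 FPKM as lowest, median and highest WT values. Pramel5 had 25.6, 10.4 and 31.2 FPKM in KO epiblast cells, against a highest WT value of 5.70 FPKM and 4 of 7 WT cells at 0. At least 2 of the 3 KO cells exceeded every WT cell for Pramel5, and KO cells 1 and 2 did for Pramel4. Over the 5872 genes averaging 1 FPKM or more in these cells, 11.5% had at least 2 KO cells above every WT cell and 43.8% a higher KO mean.

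The summed markers of each cell class overlapped between KO and WT epiblast cells, while single markers did not all do so. The 7 markers of ICM and epiblast summed to 1060 to 2600 FPKM in KO and 1100 to 2000 FPKM in WT cells. The 11 primitive endoderm markers summed to 1.80 to 3.63 FPKM in KO, with 10 below 1 FPKM in every KO cell, and to 1.94 to 35.5 FPKM in WT. The 8 trophectoderm markers summed to 138 to 336 FPKM in KO and 60.7 to 254 FPKM in WT. The 4 E5.5 epiblast markers summed to 30.6 to 97.1 FPKM in KO and 41.3 to 382 FPKM in WT. Of them Lefty2, an inhibitor of Nodal signalling, was at 0 in all 3 KO cells and at 14.6 to 298 FPKM in WT cells. Nodal went the other way by mean (51.7 FPKM in KO and 16.6 FPKM in WT, ranges 0 to 97.0 and 0.872 to 37.0 FPKM). Otx2 (10.2 and 16.6 FPKM) and Dnmt3b (10.1 and 35.6 FPKM) had lower KO means. Among naive pluripotency factor genes, Klf4 had 40.8 to 107 FPKM in KO and 0.0475 to 37.2 FPKM in WT cells, Nanog 222 to 725 FPKM in KO and 59.6 to 253 FPKM in WT, and Tbx3 9.47 to 145 FPKM in KO and 3.52 to 31.6 FPKM in WT. By mean, Klf5 (14.4 FPKM in KO, 49.4 FPKM in WT), Klf2 (5.12 and 7.69 FPKM) and Esrrb (40.3 and 41.2 FPKM) were lower in KO. The other measured genes of the naive pluripotency list had higher KO means. Lefty2, Klf4, Nanog and Tbx3 were picked after their values were seen. KO cells held 3026 to 3628 genes at 1 FPKM or more and WT cells 3878 to 4682. The part of these differences in the Pramel values was not tested.

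In primitive endoderm cells Pramel7 alone was high. It had 137 and 0.771 FPKM in the 2 KO cells, against 164 FPKM in the WT cell. Pramel4, Pramel5 and Pramel6 were at 0 to 1.06 FPKM in KO and 0 to 0.333 FPKM in WT primitive endoderm cells. The 11 primitive endoderm markers summed to 479 to 850.0 FPKM in KO and 2720 FPKM in WT, so the cells carried the RNA their label names.

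Over the 20 embryo libraries, with predicted and clone names left out, the genes that followed the members most closely were partly shared between them. The 5 with the highest Pearson correlation to each member came to 9 genes of 5913 searched, with r from 0.961 to 0.992, as a description. The endoplasmic reticulum lipid scramblase gene Tmem41b was on all 4 lists. The nuclear receptor gene Nr5a2 was on those of Pramel4, Pramel6 and Pramel7, as was Trim43a, a tripartite motif gene. Calcoco2, an autophagy receptor gene, and Timd2 were on those of Pramel4 and Pramel5, the primitive endoderm factor gene Gata6 and the phospholipid enzyme gene Cds2 on those of Pramel6 and Pramel7, and Ceacam10 and the ATP synthase assembly gene Tmem70 on that of Pramel5. Pramel6 and Pramel7 correlated at 0.993, higher than either did with any other gene. Pramel4 and Pramel5 correlated at 0.98, and no pair of members was below 0.966. These values rest mostly on the gap between ICM and E5.5 that all of these genes share.

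The E4.5 cells, which were not used to find these 9 genes, set them apart. Calcoco2 had 2590, 1390 and 505 FPKM in KO epiblast cells, against 4.0 to 215 FPKM in WT epiblast cells. Trim43a had 104, 480 and 0.682 FPKM in KO epiblast cells, against 0 to 6.09 FPKM in WT, and like Pramel4 and Pramel7 it was low in KO cell 3. Tmem41b (74.8, 93.5 and 117 FPKM in KO, 11.7 to 91.2 FPKM in WT) and Tmem70 (5.03, 109 and 33.0 FPKM in KO, 0.0942 to 27.8 FPKM in WT) also had 2 KO cells above every WT cell. That makes 4 of the 7 that averaged 1 FPKM or more in these cells, where 11.5% of all such genes had it. Nr5a2, Ceacam10 and Cds2 did not have it. By mean, Cds2 was lower in KO (4.48 FPKM) than in WT epiblast cells (18.2 FPKM). Nr5a2 (13.7 FPKM in KO, 7.79 FPKM in WT) and Ceacam10 (4.56 and 1.53 FPKM) were higher in KO by mean. Gata6 and Timd2 were below 2 FPKM in every epiblast cell. In primitive endoderm cells Gata6 had 17.0 and 27.4 FPKM in KO and 1.68 FPKM in WT, and Timd2 had 132 and 298 FPKM in KO and 18.2 FPKM in WT. In ICM, Trim43a was the one of the 9 called lower in KO (119 FPKM mean in KO, 324 FPKM in WT, log2 change -1.53, limma adjusted p = 0.00577). Of all genes tested there, 24.9% were called lower.

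**Figure D4:**
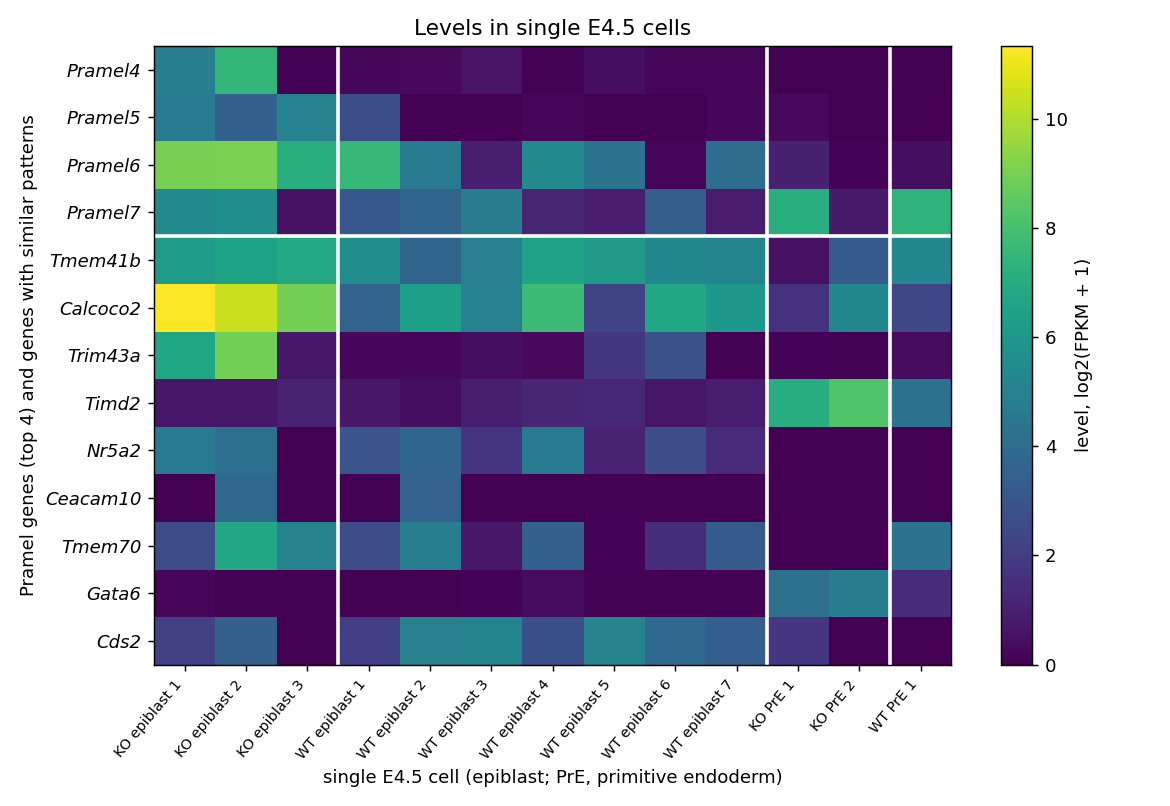
Levels in single E4.5 cells as log2(FPKM + 1), the 4 Pramel genes above the 9 genes of most similar pattern over embryo libraries; columns are KO then WT epiblast cells and KO then WT primitive endoderm (PrE) cells. KO epiblast cells 1 and 2 are high for Pramel4, Pramel6, Pramel7, Calcoco2 and Trim43a, and Timd2 (132 and 298 FPKM) and Gata6 (17.0 and 27.4 FPKM) are highest in the KO PrE cells.

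Other family rows were far lower in ICM. Pramef17, whose promoter resembled that of Pramel7, averaged 0.865 ± 0.934 FPKM in KO and 4.01 ± 2.16 FPKM in WT ICM (SD, n = 7 each), a log2 change of -1.44 with an SE of 0.39 (limma adjusted p = 0.0137). It was the 1 of 4 called lower, where 24.9% of all genes tested were called lower. The Pramef17 change was -0.47 (adjusted p = 0.382) under quantile normalization and -1.33 (adjusted p = 0.0642) without KO libraries 1, 4 and 6. By median ratio scaling it stayed called (-1.18, limma adjusted p = 0.0492). Pramef8, Pramef12 and Pramef6 differed by -1.12, -0.21 and -0.20 (adjusted p = 0.0994, 0.732 and 0.62). In E4.5 epiblast cells Pramef17 ranged from 4.64 to 32.0 FPKM in KO and 0 to 7.76 FPKM in WT. Between E5.5 and E3.5 in WT, Pramef8 (8.98 ± 1.62 FPKM at E5.5, SD, n = 3, and 13.3 ± 5.58 FPKM in ICM, SD, n = 7; log2 -0.41, limma adjusted p = 0.359) and Pramef12 (0.28, adjusted p = 0.56) were not called, Pramef6 was called lower (-1.41, adjusted p = 0.000822), and Pramef17 was listed at 0 in all 3 WT E5.5 libraries. D5Ertd577e, now Pramel48, averaged 3.83 FPKM in KO and 10.5 FPKM in WT ICM.

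Genes of the CUL2 ligase, the machine that PRAME-type receptors plug into, did not move as 1 group. In KO ICM, where 3.44% of all genes were called higher and 24.9% lower, 4 of 13 were called higher: the elongin genes Tceb1 (log2 0.82) and Tceb2 (1.06), which link receptors to the cullin, the RING gene Rbx1 (0.85) and Nedd8 (0.87), the cullin activator (limma adjusted p = 0.00232 to 0.0135). Called lower were the scaffold Cul2 (-0.94, adjusted p = 0.0157) and the receptor gene Vhl (-1.08, adjusted p = 0.0278). The list's median was -0.29, against -0.65 for all genes. Uba3, Ube2m, Cand1, Klhdc2, Zyg11b, Fem1b and Lrr1 were not called (-0.93 to 0.68). After quantile normalization 3 were called higher (Tceb1 was lost) and 0 lower, by median ratio scaling 5 higher and 0 lower, and without KO libraries 1, 4 and 6 there were 2 higher (Nedd8 and Tceb2) and 0 lower. The list's median was 0.34 and 0.25 under these scalings, so its sign depended on the scaling.

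Of the UHRF1 and maintenance methylation list, 0 of 8 were called higher and 3 lower in KO ICM, where 3.44% of all genes tested were called higher and 24.9% lower. Uhrf1, whose protein PRAMEL7 targets in stem cells, had a mean of 15.2 ± 6.31 FPKM in KO and 14.0 ± 6.54 FPKM in WT ICM (SD, n = 7 each), with a log2 difference of 0.11 and an SE of 0.45 (limma adjusted p = 0.859). RNA does not report on the protein. The 3 called lower were Uhrf2, a relative of Uhrf1 (-1.53), the chromatin remodeller gene Hells (-0.95) and Cdca7, which recruits HELLS (-1.34; adjusted p = 0.0101 to 0.0197). After quantile normalization 0 of the 8 were called, and by median ratio scaling 1, Uhrf2. Without KO libraries 1, 4 and 6 all 3 stayed called lower (Uhrf2 -1.67, Hells -1.05 and Cdca7 -1.36, limma adjusted p = 0.0317 to 0.0386). With detected genes as covariate 0 of the 8 were called. Dnmt1 (-0.63), Pcna (-0.43), Lig1 (-0.27) and Trim28 (-0.17) were not called (adjusted p = 0.117 to 0.661). The list's median was -0.53, against -0.65 for all genes.

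Between E5.5 and E3.5 in WT, where the members were lower, 7 of these 8 genes were called higher and 0 lower, against 37.3% and 18.9% of all genes tested. Uhrf2 did not pass (1.11, limma adjusted p = 0.0629). The list's median was 2.24, against 0.43 for all genes. Uhrf1 averaged 113 ± 21.0 FPKM in WT E5.5 libraries (SD, n = 3) and 14.0 ± 6.54 FPKM in WT ICM (SD, n = 7), a log2 change of 3.09 (limma adjusted p = 5.56e-05). Dnmt1 averaged 21.4 ± 5.35 FPKM in WT E5.5 and 2.10 ± 0.774 FPKM in WT ICM, a change of 2.86 (limma adjusted p = 4.13e-06). In single E4.5 epiblast cells Uhrf1 averaged 122 FPKM over 3 KO and 166 FPKM over 7 WT cells. Of the CUL2 ligase list, 2 of 13 were called higher and 5 lower, against 37.3% and 18.9% of all genes tested. The 5 became 3 without WT E5.5 library 2 or 3, with the replicate block, with the covariate or in the fit of 4 groups.

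Of 6 tested de novo methylation and TET genes, only the glycosylase gene Tdg was called in KO ICM (-1.56, limma adjusted p = 0.0378), and Tet2 (-0.40) and Dnmt3l (-0.84) were not. Of the LIF and STAT3 list 4 of 12 measured genes passed the filter, and Stat3, the pathway's transcription factor, was called lower (2.94 ± 3.38 FPKM in KO, 9.11 ± 4.61 FPKM in WT, SD, n = 7 each; log2 -1.71, limma adjusted p = 0.0214), while Jak1 (-0.79) and Klf5 (-0.39) were not. With detected genes as covariate Stat3 changed sign (0.20, adjusted p = 0.974). Of 12 naive pluripotency genes the transcription factor genes Tbx3 (-1.21, limma adjusted p = 0.0345) and Prdm14 (-1.13, adjusted p = 0.0492) were called lower and Nanog (-0.96, adjusted p = 0.0716) was not. Neither Tbx3 nor Prdm14 was called with the replicate block, with array weights, or without WT ICM library 2, 4, 6 or 7 or KO ICM library 4 or 6. Of 6 tested germline genes known to be held silent by DNA methylation, Tex19.1 (-1.39, limma adjusted p = 0.00883) and Mael (-1.91, adjusted p = 0.019) were called lower, and of the cleavage-stage list Eif1a (-0.61) and Obox6 (-0.50) were tested and not called. Medians were -0.42, -0.65, -0.71, -0.74 and -0.56 in this order of lists, against -0.65 for all genes. These counts stand beside 24.9% of all genes tested called lower in KO ICM and 3.44% called higher. By quantile normalization or median ratio scaling only Tex19.1 of these called genes stayed called (-1.13 and -0.84, adjusted p = 0.0147 and 0.0455), and 1 naive gene was called higher and 0 lower under each, with list medians of 0.09 and -0.26. Without KO ICM libraries 1, 4 and 6 Tex19.1 was not called either (-0.73, adjusted p = 0.0712), and with the covariate it was -0.08. Between E5.5 and E3.5 in WT, 10 of 12 naive genes were called lower and 1 higher, with a median of -2.71, as the 4 members were lower. Of all genes tested between these stages, 18.9% were called lower and 37.3% higher, with a median of 0.43.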

How the data were processed

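The deposited expression values are FPKM made by the authors, in a table of 33 RNA libraries (SMART-seq2 with Tn5 libraries, per the labels' protocols). Per the submitters' processing notes the build was mm10 and the tools included STAR 2.7.3 and Trim Galore 0.6.4, with no role stated for either. The sources used here name no gene counter. Of 7186 lines, 4 with repeated names (2 genes) were left out. Depth cannot be read from FPKM. Cells and embryos may have been processed apart, so no test compares them. The authors' deposited counts of reads and methylated reads and the percent methylated per position list no position within 1 Mb of a member (the nearest is 11.2 Mb away) and were not used. Chromatin libraries (7 for H3K4me3, 2 for ATAC) were not used here.

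Embryo libraries were compared on log2(FPKM + 1), for genes averaging 1 FPKM or more there, by limma 3.58.1 (trend, robust; R 4.3.3) with Benjamini-Hochberg adjustment over all genes tested. The code was tested on simulated data. P values measure the spread between single embryos. Exact permutation tests, tables and promoter alignments (Biopython 1.88) used Python 3.11.15. RefSeq symbols matched 7152 genes. Named genes were the members, the 5 genes most correlated with each over 20 embryo libraries (without predicted and clone names), the CUL2 ligase and UHRF1 lists in full, and up to 3 genes of each other list by smallest p in ICM. Members, lists and alternatives were chosen with earlier results of these data known. Each result was also computed with a pseudocount of 0.1 or 5, with no filter or one of 5 FPKM, by quantile normalization or median ratio scaling, with array weights, without robust variance, with all 4 embryo groups fitted together, with replicate number as a block, with detected genes as a covariate, by exact permutation, and without single libraries.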

Additional observations from a re-analysis of the deposited data

Results flagged for a closer look

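Of 12 groups of members and libraries large enough to look for a single far sample, 4 held one whose gap to its nearest neighbour was a large share of the group's range, where chance gives about 1 in 20 for normally distributed values. Of these 4, 3 are FPKM of single E4.5 cells, many near or at 0, to which that share does not apply. Pramel6 was at 816.1 FPKM in WT ICM library 3, with the next at 565.4 FPKM. In WT E4.5 epiblast cell 1, Pramel6 was at 185.0 FPKM (next 41.01 FPKM) and Pramel5 at 5.704 FPKM (next 0.1777 FPKM), so the same cell stood out for both. Pramel7 was at 26.58 FPKM in WT E4.5 epiblast cell 3, with the next at 11.78 FPKM.

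The KO effect on Pramel6 at E5.5 minus that at E3.5 was 1.89 on the log2 scale (limma adjusted p = 0.0369). Pramel6 entered that test through its ICM level and was near or at 0 in the E5.5 libraries, and 12 of 31 alternatives, 8 of them leaving out 1 library, ended the call.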

How the results depend on the processing

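The fall of all 4 members between E5.5 and E3.5 stayed called in both genotypes under every alternative run. The members passed the filter through their ICM levels alone and were near 0 at E5.5, so a call could only be lower. The size of the fall moved with the pseudocount (-9.07 to -4.50 in KO and -12.17 to -5.17 in WT over 0.1 and 5). The lower Pramel6 in KO ICM was -1.33 to -0.95 when single libraries were left out and was not called by median ratio scaling (-0.57), with detected genes as covariate (-0.04) or without KO ICM libraries 1, 4 and 6 (-0.41). Pramel7 ranged from -1.34 to -0.91 and was not called under these (-0.55, -0.31 and -0.44), with array weights (-0.63), or in 5 of 14 fits that left out 1 library. Pramel4 was called by quantile normalization (-0.72), had an unadjusted exact permutation p of 0.0437 for its -0.64, ranged from -0.77 to -0.48 without single libraries, and changed sign with the covariate (0.24). Pramel5 ranged from -0.82 to -0.46. With the covariate Stat3 changed sign too (0.20).

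The difference of KO effects on Pramel6 ranged from 1.61 to 2.28 without single libraries and was not called with a pseudocount of 5 (1.33), median ratio scaling (1.20), the covariate (0.97) or without KO ICM libraries 1, 4 and 6 (1.17). With a pseudocount of 0.1 it was called for Pramel4 (2.06) and Pramel7 (2.57). Except for the alternatives' own construction, the cause was not tested.

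Equal replicate numbers did not pair the ICM libraries (correlations -0.13 to 0.16, 1 of 7 best with its own number; at E5.5 -0.02 to 0.12, 2 of 3). With the replicate block Pramel6 was -1.13 (limma adjusted p = 0.0195), Pramel7 -1.11 (adjusted p = 0.0273), and 1221 genes were called.

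In ICM 1540 genes were called as measured (187 higher, 1353 lower), 708 by quantile normalization (357 higher, 351 lower), 879 by median ratio scaling (413 higher, 466 lower), 405 without KO libraries 1, 4 and 6, and 0 with the covariate (314 at an unadjusted p below 0.05). Without WT ICM library 1 it was 946 and without 4 it was 987. For the difference of effects 827 were called, 520 with a pseudocount of 0.1, 1664 with array weights, 446 with the covariate, and 458 to 496 without KO E5.5 library 1, WT E5.5 library 1 or 2. At E5.5 2032 became 702 in the fit of 4 groups and 1205 to 1293 without WT E5.5 library 1 or 2. Between stages the covariate took 2717 to 1103 in KO and 3388 to 2143 in WT. Depth is unknown, so values near 0 set no limit on absence.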
